A study of Homo sapiens with 6 samples.

Results

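The genes described here are 35 angiogenic and mitogenic growth factors and their receptors: the VEGF, PDGF, FGF and HGF systems with the angiopoietins, the KIT ligand, GAS6 with AXL, and BDNF. They were chosen by gene symbol, and all 35 were found among the 57819 genes of the deposited table. They comprise 23 ligands and 12 receptors or receptor-like proteins. RNA came from IMR90 cells, human lung fibroblasts that here carry ER:Ras. This is a Ras oncoprotein fused to an estrogen receptor domain so that 4-hydroxytamoxifen (4OHT) switches it on. All 6 libraries, controls included, came from cells given 200 nM 4OHT for 3 days, so both groups hold oncogenic Ras activity and no untreated library was compared. The control group had 3 libraries with a scrambled siRNA, and the knockdown group had 3 libraries with an siRNA against sin-lncRNA, a long noncoding RNA. The design asks what an siRNA against this RNA does in cells with Ras switched on. Whether the cells were senescent at this time was not tested here.

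Most of these receptors are tyrosine kinases that span the membrane and pair up when a ligand binds, after which adaptors pass the signal to the Ras-ERK, PI3K and phospholipase C pathways. Fibroblasts are classical responders to PDGF and FGF and a classical source of HGF, FGF7 and VEGF, which act on epithelium and endothelium. PDGF-AA and PDGF-CC bind PDGFR-alpha, PDGF-BB binds both PDGF receptors and PDGF-DD mainly PDGFR-beta.

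The PDGF receptor genes moved in opposite directions and ANGPTL2, a secreted angiopoietin-like protein, had the smallest adjusted p of the members, so the 250 bases before their RefSeq start sites are shown first (GRCh38.p14, each on the strand of its gene, read 5′ to 3′). Capitals mark matches, on either strand, to the AP-1 site TGANTCA, the CCAAT box CCAAT and the GC box GGGCGG. The stretches lie at chr4:54229043-54229292 on the plus strand for PDGFRA, chr5:150155846-150156095 on the minus strand for PDGFRB and chr9:127122636-127122885 on the minus strand for ANGPTL2.
PDGFRA: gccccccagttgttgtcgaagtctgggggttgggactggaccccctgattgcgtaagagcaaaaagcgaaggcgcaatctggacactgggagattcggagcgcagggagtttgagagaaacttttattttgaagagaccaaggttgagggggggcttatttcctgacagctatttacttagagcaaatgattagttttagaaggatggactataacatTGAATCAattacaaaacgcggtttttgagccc
PDGFRB: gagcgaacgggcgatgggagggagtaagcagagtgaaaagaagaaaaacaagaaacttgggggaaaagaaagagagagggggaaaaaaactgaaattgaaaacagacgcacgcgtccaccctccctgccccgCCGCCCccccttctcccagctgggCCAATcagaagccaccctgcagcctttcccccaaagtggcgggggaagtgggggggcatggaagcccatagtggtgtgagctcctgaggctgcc
ANGPTL2: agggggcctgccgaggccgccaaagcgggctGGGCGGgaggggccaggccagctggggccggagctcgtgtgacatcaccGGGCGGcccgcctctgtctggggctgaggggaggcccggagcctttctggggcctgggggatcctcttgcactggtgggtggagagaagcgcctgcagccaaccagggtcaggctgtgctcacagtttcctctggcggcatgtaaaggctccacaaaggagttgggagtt
The stretch before PDGFRA, the upstream one of its RefSeq starts, holds 1 match to TGANTCA and neither of the other motifs. This match reads TGAATCA, with A at the free base, and begins 32 bases before the start. The stretch before its other start, not shown, differs. It holds no TGANTCA match, a CCAAT match 74 bases before that start and 2 GC box matches, the first at 139 bases. PDGFRB has a CCAAT match beginning 94 bases before its start and a GC box match at 118 bases. ANGPTL2 has GC box matches, the first of them 219 bases before its start. Of 35116 promoters of the same length, 6.57% hold TGANTCA, 32.0% hold CCAAT and 42.6% hold GGGCGG. The table has 46 promoters for 27 members, up to 5 for a gene, and of these 46 promoters 4.35% hold TGANTCA, 23.9% CCAAT and 67.4% GGGCGG. The matches are letters in a window and describe no binding. FGFR1, ANGPT2, FGF9, PDGFRL, PDGFC, PDGFB, VEGFA and ANGPT1 had no entry.

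The libraries held between 30271192 and 50913672 reads in genes in the controls and between 22117324 and 27882280 in the knockdown, so the deepest knockdown library had fewer reads than the shallowest control, and depth cannot be told apart from the group. Levels are given as RPM, the reads of a gene scaled to the reads in genes of its library. Where a gene had 0 reads, up to 3 reads remain possible, which is 0.0596 to 0.134 RPM by library. The targeted sin-lncRNA was at 3.70, 4.73 and 4.09 RPM in the controls and 0.493, 0.640 and 0.534 RPM in the knockdown, or 13.3% of control (log2 fold change -2.86, SE 0.18, limma adjusted p = 7.9e-07). All 11 fibroblast markers were tested and changed, 6 higher and 5 lower. Their sum was 41914 to 43651 RPM in the controls and 41995 to 43424 RPM in the knockdown, over a rise of FN1 (25152 to 29811 RPM in the means) and falls of COL1A1 (6617 to 3599 RPM) and COL1A2 (3695 to 2167 RPM). The 10 endothelial markers in the table summed to 39.7 to 44.2 RPM in the controls and 29.6 to 32.7 RPM in the knockdown, with the defining genes CDH5, ERG and EMCN at no more than 3 reads in every library. Sums of 9 pericyte and smooth muscle markers were 367 to 418 RPM and 316 to 355 RPM, and those of 9 epithelial markers 8.79 to 10.7 RPM and 4.84 to 6.02 RPM, in the same order. The sums of 7 leukocyte markers went the other way, at 0.266 to 0.477 RPM in the controls and 0.470 to 0.784 RPM in the knockdown. Those ranges overlap, and each leukocyte marker had too few reads to be tested. Single markers did not all follow the sums. Of 6 endothelial markers tested 1 rose and 2 fell, and of 8 pericyte and smooth muscle markers 1 rose and 4 fell. Of 3 epithelial markers tested 0 rose and 2 fell. The part of these shifts in the results was not tested. In bulk RNA, fewer cells of a type and less RNA per cell cannot be told apart.

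Of the 35 members, 31 had the mean of at least 10 reads needed for testing. With limma and a Benjamini-Hochberg adjusted p under 0.05, 19 of the 31 changed, or 61.3%, against 41.0% of all 19048 genes tested and 48.6% of the protein-coding ones. In 21 members the 3 knockdown libraries lay wholly outside the range of the 3 controls, which was so for 51.1% of all genes tested. At an absolute log2 fold change of 1 or more, 4 members passed, PDGFB, FGF18, ANGPTL2 and PDGFRL, against 2.95% of all genes tested. PDGFB and FGF18, at means of 10.6 and 11.5 normalized reads, met the mean of 10 only through the knockdown libraries, where they were high. The filter thus favoured a rise in PDGFB and FGF18, which are also among the risen ligands counted below. Changes went both ways: 9 members rose (17.5% of all genes tested did) and 10 fell (23.5%). The median log2 fold change was -0.027 over the members and -0.039 over all genes tested, while the median absolute log2 fold change was 0.43 and 0.23. Of 21 ligands tested 7 rose and 6 fell (61.9% changed), with a median of -0.027. Of 10 receptors and receptor-like proteins 2 rose and 4 fell (60.0% changed), with a median of -0.18. Without the receptor-like PDGFRL and FGFRL1, 8 receptors were tested, of which 1 rose and 4 fell (62.5% changed), with a median of -0.37. The median of receptors and receptor-like proteins together was 0.033 both without the filter on low reads and with a mean of at least 50 reads required. Both settings change which receptors enter: the first adds KDR and FGFR2, and the second drops FGFR3 and FGFR4. The ligand median was -0.15 with a trend on GC content and gene length removed. The difference between ligands and receptors was not tested.

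**Figure D1:**
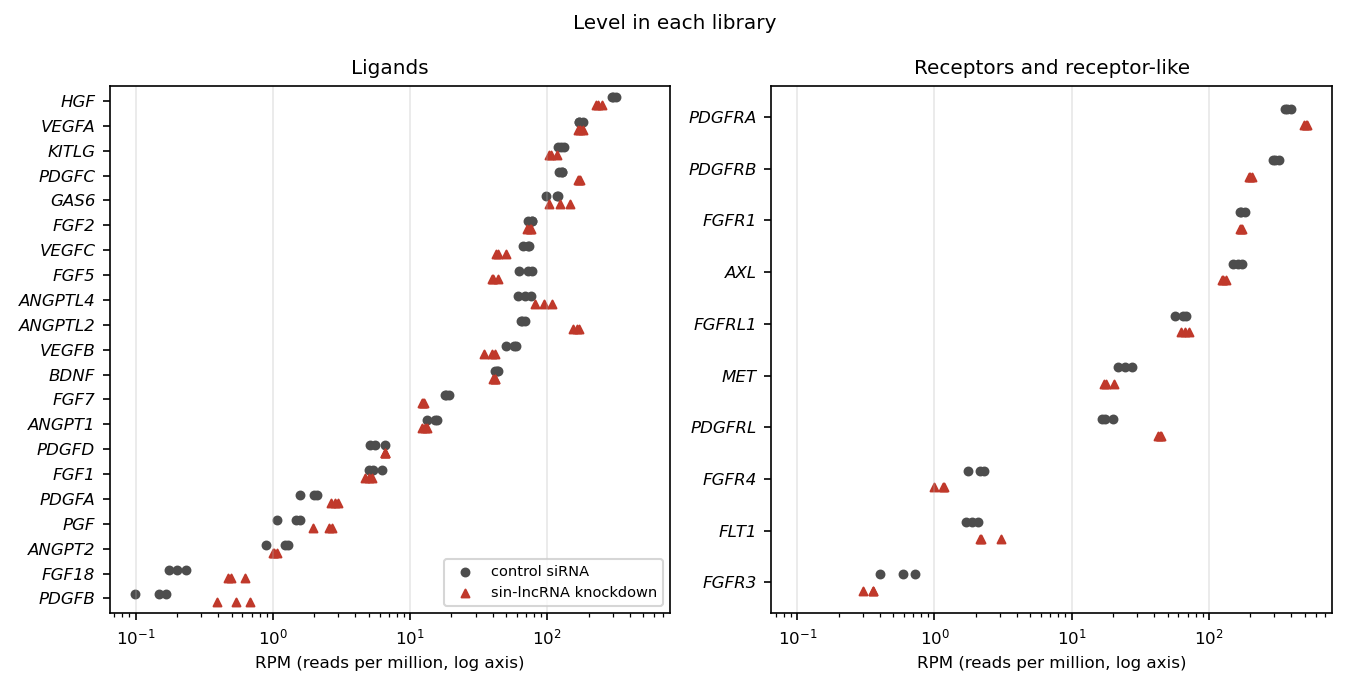
Level of each tested member in every library, on a log scale of RPM. Points are single libraries, 3 control and 3 knockdown, and the range runs from PDGFB, under 1 RPM in every library, to PDGFRA, at 359 to 515 RPM.

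Of the VEGF ligands, which drive growth of blood and lymph vessels, VEGFB and VEGFC fell, PGF rose and VEGFA differed by less than its replicate spread. VEGFB was at 58.9, 50.4 and 57.6 RPM in control replicates 1, 2 and 3 and at 34.8, 41.5 and 39.6 RPM in the knockdown. Each knockdown library lay below the lowest control, and VEGFB, a factor linked to fatty acid handling and heart vessels, fell by 0.53 on the log2 scale (SE 0.077, limma adjusted p = 0.00033). With the GC and length trend removed the fall was 0.29 (adjusted p = 0.0020). The lymphatic factor VEGFC was at 66.2, 72.4 and 74.0 RPM in the controls and 50.2, 42.3 and 43.5 RPM in the knockdown. Its groups were also apart, and the level was 64.0% of control (log2 fold change -0.65, SE 0.070, limma adjusted p = 4.1e-05). PGF, placental growth factor, a ligand of FLT1, was at 1.59, 1.47 and 1.07 RPM against 2.69, 2.56 and 1.96 RPM in the knockdown. All 3 knockdown libraries were above all 3 controls, on 44 to 60 reads per library, and PGF rose by 0.81 on the log2 scale (SE 0.20, limma adjusted p = 0.0068). VEGFA, the main vessel growth factor, spanned 169 to 183 RPM in the controls and 168 to 183 RPM in the knockdown. The ranges coincide, and the log2 fold change was -0.00066 (SE 0.049, limma adjusted p = 0.99).

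VEGF receptors were scarce. KDR, the main endothelial VEGF receptor, had 1 to 5 reads per library and was not tested. FLT1, a high-affinity VEGF receptor that also acts as a decoy, ranged from 1.70 to 2.07 RPM in the controls and from 2.15 to 3.03 RPM in the knockdown. These ranges did not overlap, but the difference of 0.37 on the log2 scale did not pass the test (SE 0.17, limma adjusted p = 0.11), and was 0.21 without knockdown replicate 2.

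In the PDGF system 6 of 7 genes changed, against 41.0% of all genes tested, 5 upwards and PDGFRB downwards. PDGFC, a latent ligand activated by proteolysis, made up 92.4% of the PDGF ligand level per kilobase of exon in the controls and 92.8% in the knockdown. Its range was 121 to 129 RPM in the controls and 166 to 173 RPM in the knockdown, and it rose by 0.43 on the log2 scale (SE 0.043, limma adjusted p = 2.1e-05). PDGFA, the ligand of PDGFR-alpha homodimers, was at 1.59, 2.00 and 2.11 RPM in the controls and 2.96, 2.82 and 2.67 RPM in the knockdown. Every knockdown library exceeded every control, and the rise was 0.58 on the log2 scale (SE 0.15, limma adjusted p = 0.0098).

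PDGFB, the ligand shared by both receptors, had 0.147, 0.166 and 0.0993 RPM in the controls, 5 reads in each, and 0.538, 0.683 and 0.392 RPM in the knockdown, on 11 to 16 reads. The knockdown libraries were again all higher, and the log2 fold change was 1.88 (SE 0.37, limma adjusted p = 0.0021), the highest of the tested members and one resting on the fewest reads. PDGFB met the read filter only through the knockdown libraries, so its direction was favoured by the filter. PDGFD, mainly a PDGFR-beta ligand, was at 5.09 to 6.61 RPM in the controls and 6.55 to 6.59 RPM in the knockdown. Control replicate 1 matched the knockdown, and the difference of 0.20 did not pass (SE 0.11, limma adjusted p = 0.16). Without control replicate 1 it was 0.30 with an adjusted p of 0.036.

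The receptors of this system parted. PDGFRA (hg19 chr4:55095264-55164414) encodes PDGFR-alpha, the receptor that marks many mesenchymal progenitors, and was at 400.0, 359 and 370 RPM in the controls and 511, 490.2 and 515 RPM in the knockdown. Every knockdown library lay above the controls, a rise of 0.43 on the log2 scale (SE 0.048, limma adjusted p = 4.9e-05). PDGFRB (hg19 chr5:149493400-149535435) encodes PDGFR-beta, the receptor known for pericyte recruitment, and was at 326, 303 and 295 RPM in the controls and 196, 205 and 200.0 RPM in the knockdown. All knockdown libraries were well below, with a fall of 0.62 on the log2 scale (SE 0.047, limma adjusted p = 3.0e-06). Reads of PDGFRA over those of PDGFRB, a ratio picked after the values were seen, were 1.23, 1.19 and 1.25 in the controls and 2.61, 2.40 and 2.57 in the knockdown. Per kilobase of exon the order of the receptors turned: PDGFRB was at 43.2 ± 2.26 and PDGFRA at 38.7 ± 2.19 RPM per kilobase in the controls (SD, n = 3), and PDGFRA at 51.9 ± 1.37 and PDGFRB at 28.0 ± 0.637 in the knockdown. The order in the controls rests on merged exon lengths of GENCODE 29, 9732 bases for PDGFRA and 7137 for PDGFRB. By reads alone PDGFRA was above PDGFRB in every library, so the turn is seen only with this length scaling. GENCODE 29 gives PDGFRA 1533 exon bases shared on the same strand with another gene, so part of its count is uncertain.

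PDGFRL, a secreted receptor-like protein without a kinase, was at 20.0, 17.4 and 16.5 RPM in the controls and 42.4, 43.7 and 44.6 RPM in the knockdown. The lowest knockdown library held over 42 RPM while the highest control held about 20.0, and the level was 2.42 times control (log2 fold change 1.28, SE 0.073, limma adjusted p = 5.4e-07). It shares 277 exon bases with MTUS1 on the opposite strand, and the strand setting of the counting is not given in the sources used here.

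**Figure D2:**
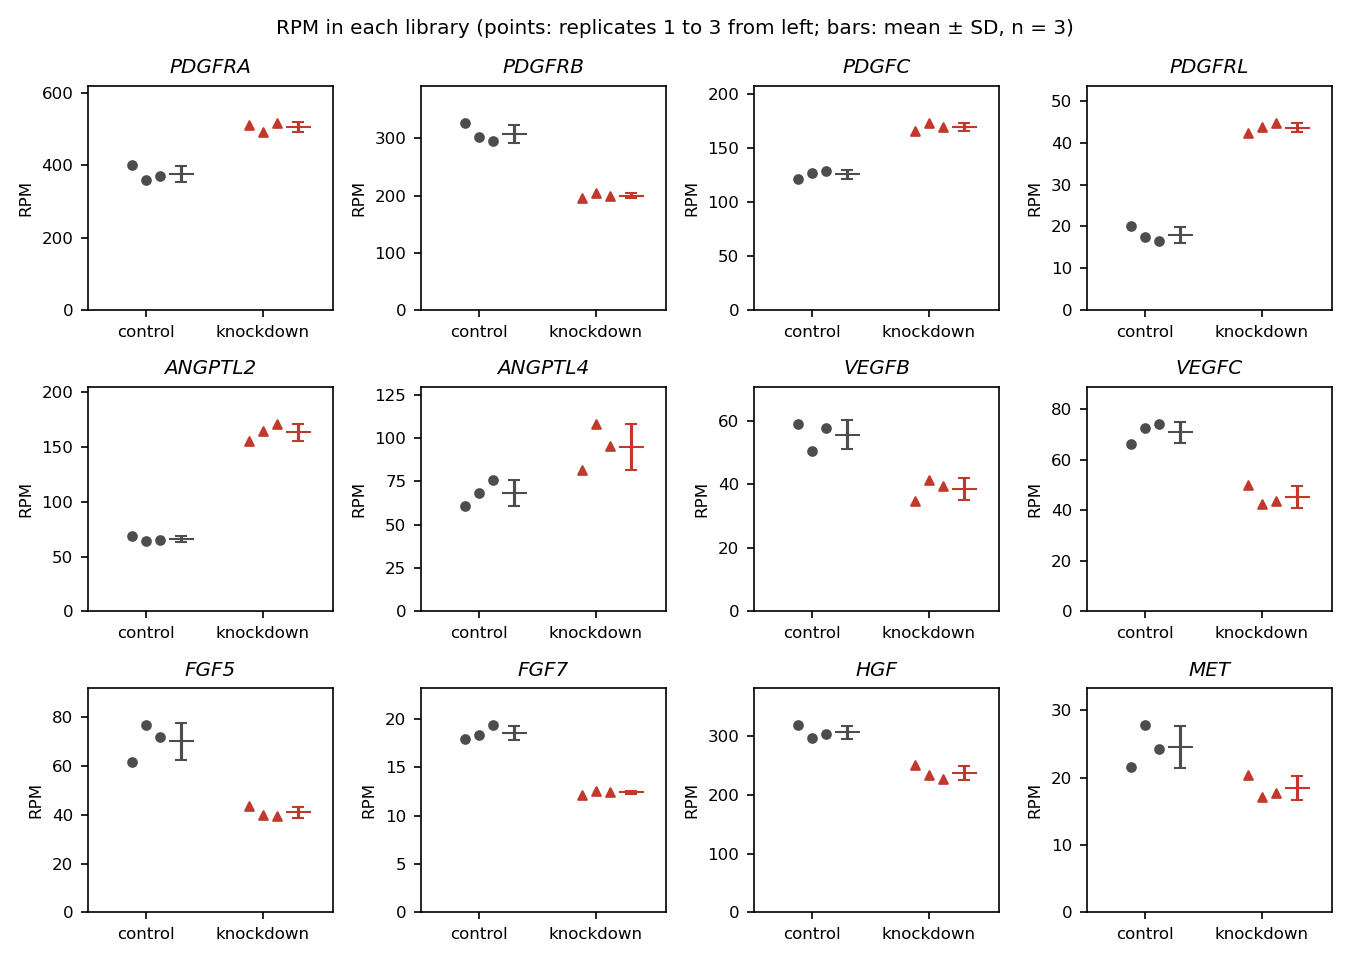
Level of 12 changed members in RPM, with 1 point for each of the 3 control and 3 knockdown libraries and the group mean and SD beside the points (each axis starts at 0). In ANGPTL2, PDGFRL and PDGFRB the knockdown points are far from the control points.

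FGF ligands, which bind heparan sulfate on the way to their receptors, split by member. FGF5, known for ending the growth phase of hair, was at 61.8, 76.8 and 72.0 RPM in the controls and 43.7, 40.1 and 39.6 RPM in the knockdown. All 3 knockdown libraries were lower than all controls, at 58.6% of the control mean (log2 fold change -0.77, SE 0.077, limma adjusted p = 2.3e-05). FGF7, keratinocyte growth factor, was at 18.0, 18.3 and 19.4 RPM in the controls and 12.2, 12.6 and 12.5 RPM in the knockdown. This ligand, made by mesenchyme for epithelium, fell by 0.58 with tight replicates (SE 0.065, limma adjusted p = 5.3e-05). FGF18, a ligand known in cartilage and lung, was near the detection floor, at 0.176, 0.233 and 0.199 RPM against 0.628, 0.470 and 0.499 RPM in the knockdown, on 6 to 14 reads. Its groups did not overlap, and it rose by 1.35 on the log2 scale (SE 0.31, limma adjusted p = 0.0050). Like PDGFB, it met the read filter only through the knockdown libraries.

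FGF2, basic FGF, a broad mitogen of fibroblasts, spanned 72.0 to 77.5 RPM in the controls and 71.3 to 76.3 RPM in the knockdown. The ranges overlap, and the log2 fold change was -0.027 (SE 0.050, limma adjusted p = 0.70). With the GC and length trend removed it was -0.15 and passed (adjusted p = 0.013). FGF1, acidic FGF, which binds all FGF receptors, spanned 5.02 to 6.22 and 4.66 to 5.31 RPM, and its difference of -0.14 did not pass either (SE 0.11, limma adjusted p = 0.34). With FGF5 and FGF7 lower, FGF2 took 52.3% of the FGF ligand level per kilobase of exon in the knockdown against 41.6% in the controls, and FGF5 took 32.8% against 43.6%, shares computed after the values were seen. FGF9 and FGF10, factors of lung development, had no more than 3 reads in any library and were not tested. FGF2 shares 804 exon bases with NUDT6 on the opposite strand.

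Of the FGF receptors, FGFR1 provided 95.8% of the level per kilobase over FGFR1 to FGFR4 in the controls and 97.6% in the knockdown. It spanned 167 to 183 RPM in the controls and 167 to 174 RPM in the knockdown, and the log2 fold change was -0.024 (SE 0.046, limma adjusted p = 0.71), and -0.12 with the GC and length trend removed (adjusted p = 0.043, or 0.072 with the replicate block as well). FGFR4, a receptor for FGF19 in liver, was at 2.14, 1.76 and 2.30 RPM in the controls and 1.17, 1.15 and 0.997 RPM in the knockdown. Each knockdown library was below every control, at 53.4% of control on 26 to 116 reads (log2 fold change -0.88, SE 0.17, limma adjusted p = 0.0019), the largest fall among the tested members. FGFR3, a brake on bone growth, was at 0.400 to 0.715 RPM and 0.299 to 0.359 RPM, groups that did not overlap, and its difference of -0.66 did not pass (SE 0.30, limma adjusted p = 0.099), and was -0.36 with an offset of 5 reads. FGFR2, the epithelial receptor of FGF7 and FGF10, had at most 1 read per library and was not tested.

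FGFRL1, a receptor-like protein that lacks the kinase domain, had the highest level per kilobase in the FGF system. That rank rests on merged exon lengths of 4145 bases for FGFRL1 and 13842 for FGFR1, which had the higher RPM. FGFRL1 was at 67.9, 56.2 and 64.8 RPM in the controls and 62.7, 71.2 and 66.8 RPM in the knockdown. The groups overlap, and the log2 fold change was 0.090 (SE 0.073, limma adjusted p = 0.35). With the GC and length trend removed it was 0.23 and passed (adjusted p = 0.00043).

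HGF, hepatocyte growth factor or scatter factor, and its receptor MET fell together. HGF was at 318, 298 and 303 RPM in the controls and 251, 235 and 227 RPM in the knockdown. The groups were apart, and HGF fell by 0.37 on the log2 scale (SE 0.048, limma adjusted p = 0.00015). MET ranged from 21.6 to 27.7 RPM in the controls and from 17.2 to 20.4 RPM in the knockdown, and fell by 0.41 (SE 0.096, limma adjusted p = 0.0060). HGF stood about as far above MET in both groups: its level per kilobase was 9.07 ± 1.44 times that of MET in the controls and 9.26 ± 0.503 times in the knockdown (SD, n = 3).

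ANGPTL2 (hg19 chr9:129849611-129885162), a secreted protein tied to inflammation and tissue remodelling, was the member with the smallest adjusted p. It was at 68.7, 63.9 and 65.3 RPM in the controls and 155, 164 and 171 RPM in the knockdown. The gene lies on the opposite strand of RALGPS1 with no shared exon bases in GENCODE 29. The highest control lay far below the lowest knockdown library, and the level was 2.48 times control (log2 fold change 1.31, SE 0.050, limma adjusted p = 5.5e-08). ANGPTL4, an inhibitor of lipoprotein lipase, was at 61.0, 68.4 and 75.8 RPM in the controls and 81.7, 108 and 95.4 RPM in the knockdown. It too had all knockdown libraries above the controls, with a wider spread, and rose by 0.47 (SE 0.099, limma adjusted p = 0.0031).

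The angiopoietins proper, ligands of the endothelial TEK receptor, did not pass the test. ANGPT1, which stabilises vessels, was at 13.2, 15.3 and 15.7 RPM in the controls and 13.3, 12.9 and 12.3 RPM in the knockdown (log2 fold change -0.19, SE 0.082, limma adjusted p = 0.084). Knockdown replicate 1 lay inside the control range, and without control replicate 1 the difference was -0.27 with an adjusted p of 0.018. It was -0.33 with the GC and length trend removed (adjusted p = 0.0020). ANGPT2, mostly an antagonist of ANGPT1, was at 0.894 to 1.29 and 0.997 to 1.08 RPM, overlapping ranges.

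KITLG, stem cell factor, was at 120.1, 127 and 133 RPM in the controls and 118, 106 and 103 RPM in the knockdown. It fell by a small 0.21 (SE 0.060, limma adjusted p = 0.015), with knockdown replicate 1 close under the lowest control. This call was lost with the replicate block (adjusted p = 0.055), with eBayes without a trend (0.076), without control replicate 3 (0.077) and without knockdown replicate 2 (0.052) or 3 (0.074), and held with a fall of 0.33 with the GC and length trend removed (3.8e-05). AXL, a receptor kinase for GAS6 found on mesenchymal cells, was at 149, 173 and 163 RPM in the controls and 126, 132 and 127 RPM in the knockdown. All knockdown libraries were below the controls, and AXL fell by 0.33 (SE 0.056, limma adjusted p = 0.00079). GAS6 ranged from 97.2 to 119.5 RPM and from 103 to 146 RPM, overlapping ranges, and its log2 fold change was 0.14 (SE 0.11, limma adjusted p = 0.34), and shares 421 exon bases with GAS6-AS1 on the opposite strand. With the GC and length trend removed GAS6 was 0.24 higher and passed (adjusted p = 0.010). BDNF, a neurotrophin, was at 43.6, 43.1 and 41.3 RPM in the controls and 40.0, 41.7 and 41.9 RPM in the knockdown. Those values overlap (log2 fold change -0.050, SE 0.051, limma adjusted p = 0.46), and 701 of its exon bases are shared with BDNF-AS. With the GC and length trend removed it was -0.17 (adjusted p = 0.023, or 0.051 with the replicate block as well).

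**Figure D3:**
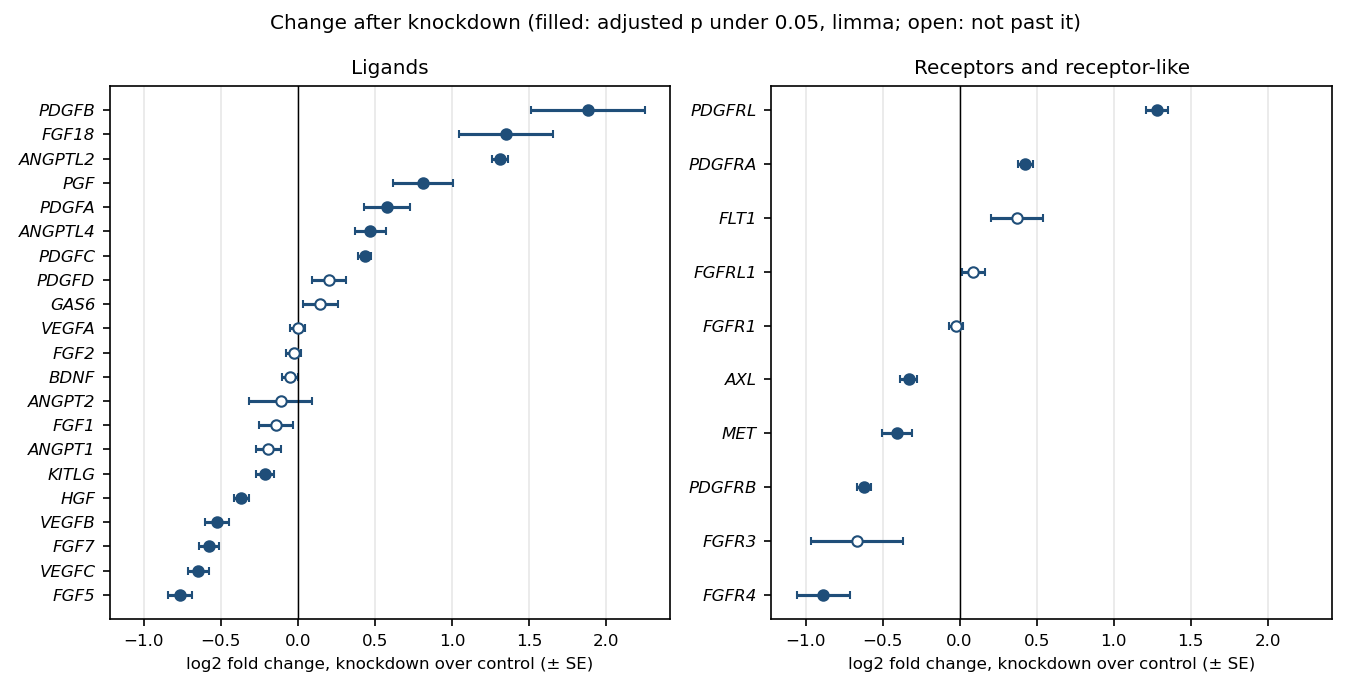
Log2 fold change, knockdown over control, of the 31 tested members with its standard error, ligands and receptors apart, each ordered by value (filled points passed the test). PDGFB has the highest value (1.88) with the widest error among the changed members, and FGFR4 the lowest (-0.88).

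Whether ligand and receptor shifted by the same amount was tested for 14 known pairs, of which 10 had both genes tested. The measure was the log2 ratio of ligand to receptor within each library, with an exact two-sided permutation test over libraries. An exact permutation test of 3 libraries against 3 cannot go below p = 0.1, and no pair passed. The groups did not overlap in 3 pairs, each at exact p = 0.1 (0.333 adjusted over the 10 pairs). PDGFB to PDGFRB rose 5.67-fold in ratio (difference 2.50), from a control range of -11.40 to -10.69 to a knockdown range of -8.93 to -8.18. PDGFB, on 5 reads in each control, met the read filter only through the knockdown libraries, so a rise of this ratio was favoured by the filter. PDGFD to PDGFRB had a difference of 0.82, or a 1.77-fold higher ratio, with control log2 ratios of -5.62, -5.89 and -5.73 and knockdown ones of -4.89, -4.96 and -4.93. GAS6 to AXL differed by 0.47, from -0.54 ± 0.27 to -0.061 ± 0.22 (SD, n = 3).

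The ratio differed little in 3 further pairs: by 0.0050 for PDGFC to PDGFRA (exact p = 1), by -0.0033 for FGF2 to FGFR1 (exact p = 1) and by 0.039 for HGF to MET (exact p = 0.9). Values for PDGFA to PDGFRA (0.15) and FGF1 to FGFR1 (-0.12) both came with an exact p of 0.5. They were -0.015 without control replicate 1 for the first, and -0.22 without control replicate 1 and -0.016 without control replicate 3 for the second. For the FLT1 ligands, VEGFA to FLT1 differed by -0.37 (exact p = 0.2) and PGF to FLT1 by 0.44 (exact p = 0.3). Without knockdown replicate 2 VEGFA to FLT1 differed by -0.21, and PGF to FLT1 differed by 0.20 without control replicate 3 and 0.27 without knockdown replicate 1. The pairs with KDR or FGFR2 could not be tested.

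**Figure D4:**
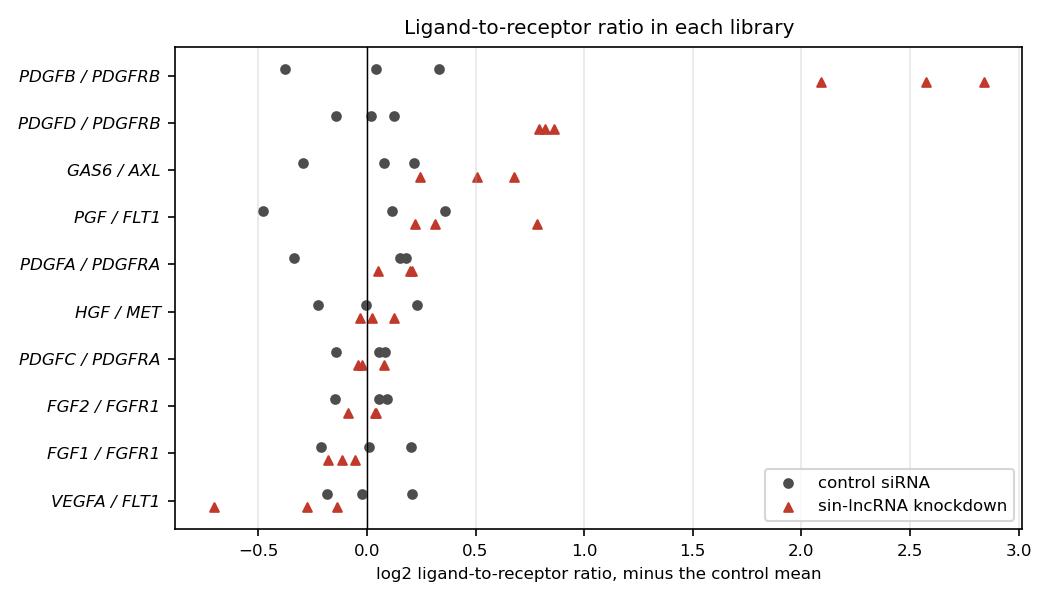
Log2 ratio of ligand to receptor in each library, minus the control mean, for the 10 tested pairs. Points are libraries, and the control and knockdown points are apart for PDGFB to PDGFRB, PDGFD to PDGFRB and GAS6 to AXL. The rise of PDGFB to PDGFRB was favoured by the read filter.

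Around the members, 6 lists held 156 further genes of these pathways, of which 114 were tested, 43 rose and 36 fell. That is 69.3% changed, where 41.0% of all genes tested and 48.6% of protein-coding ones changed (17.5% of all genes rose and 23.5% fell). Other genes listed as ligands of the families were mostly silent: 5 of 28 were tested and 2 rose (40.0% changed, 41.0% of all genes). These were FGF14 (log2 fold change 0.46), an intracellular FGF rather than a secreted ligand, and the TAM ligand protein S, PROS1 (0.45). Among other receptors and co-receptors 19 of 27 were tested, 7 rose and 7 fell (73.7% changed, 41.0% of all genes), with a median of 0.058. SORCS2, a sortilin-family receptor, was at 9.90 ± 0.314 RPM in the controls and 30.9 ± 2.50 RPM in the knockdown (SD, n = 3) and rose by 1.64 on the log2 scale (SE 0.073, limma adjusted p = 1.0e-07). NRP2, a co-receptor for VEGFC, was at 92.4, 98.6 and 95.0 RPM in the controls and 197, 205 and 208 RPM in the knockdown, a rise of 1.09 (SE 0.044, limma adjusted p = 6.3e-08) that was opposite to the fall of VEGFC. The heparan sulfate carrier SDC2 rose by 1.02.

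In the same list CD44, the hyaluronan receptor and a co-receptor for MET, was at 1399 ± 33.9 RPM in the controls and 647 ± 28.3 RPM in the knockdown (SD, n = 3), a fall of 1.11 on the log2 scale (SE 0.044, limma adjusted p = 5.6e-08). KIT, the receptor of KITLG, was at 0.782 ± 0.272 and 0.358 ± 0.0636 RPM (SD, n = 3), on 8 to 55 reads, and fell by 1.04 (SE 0.30, limma adjusted p = 0.018). TIE1, an endothelial relative of TEK, fell by 0.76.

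Downstream, 23 of 25 adaptors and proximal enzymes were tested, 9 rose and 6 fell (65.2% changed, 41.0% of all genes), with a median of 0.037. The docking proteins GAB2 (0.55), GAB1 (0.42) and FRS2 (0.40), the last of these the main FGF receptor substrate, rose. The kinase SRC (-0.50), the adaptor GRB2 (-0.32) and the ubiquitin ligase CBL (-0.28) fell. Of 24 feedback inhibitors and genes induced by ERK 6 rose and 10 fell (66.7% changed, 41.0% of all genes), with a median of -0.033. SPRY2, a Sprouty inhibitor of receptor signalling, fell from 149.99 ± 5.59 to 82.0 ± 2.38 RPM (log2 fold change -0.87, SE 0.046, limma adjusted p = 3.5e-07), and PHLDA1 (-0.43) and the ERK phosphatase DUSP5 (-0.39) fell too. PTPRB, a phosphatase acting on endothelial receptors (1.86, on 16 to 71 reads), the phosphatase DUSP4 (1.00) and SPRY1 (0.52) rose.

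Genes that process or trap ligands had 25 of 32 tested, 13 up and 7 down (80.0% changed, 41.0% of all genes), with a median of 0.18. SULF2, which trims heparan sulfate, was at 1.50, 1.40 and 1.15 RPM in the controls and 6.10, 6.36 and 6.02 RPM in the knockdown, 4.56 times control (log2 fold change 2.19, SE 0.14, limma adjusted p = 8.7e-07). SPARC, a matrix protein that binds PDGF, rose from 1831 ± 83.8 to 3825 ± 19.9 RPM (1.06), and the antiangiogenic serpin SERPINF1 rose by 0.72. SPINT1, an inhibitor of the protease that activates HGF (-1.31), ADAMTS1, which can bind VEGF (-0.94), and THBS2, an antiangiogenic matrix protein (-0.81), fell. Hypoxia-induced genes, a group to which VEGFA belongs, had 18 of 20 tested, 6 up and 6 down (66.7% changed, 41.0% of all genes), with a median of 0.094. LOX (0.76), KDM3A (0.63) and P4HA1 (0.47) rose, and PFKFB4 (-0.79), CA12 (-0.72) and HK2 (-0.64) fell.

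**Figure D5:**
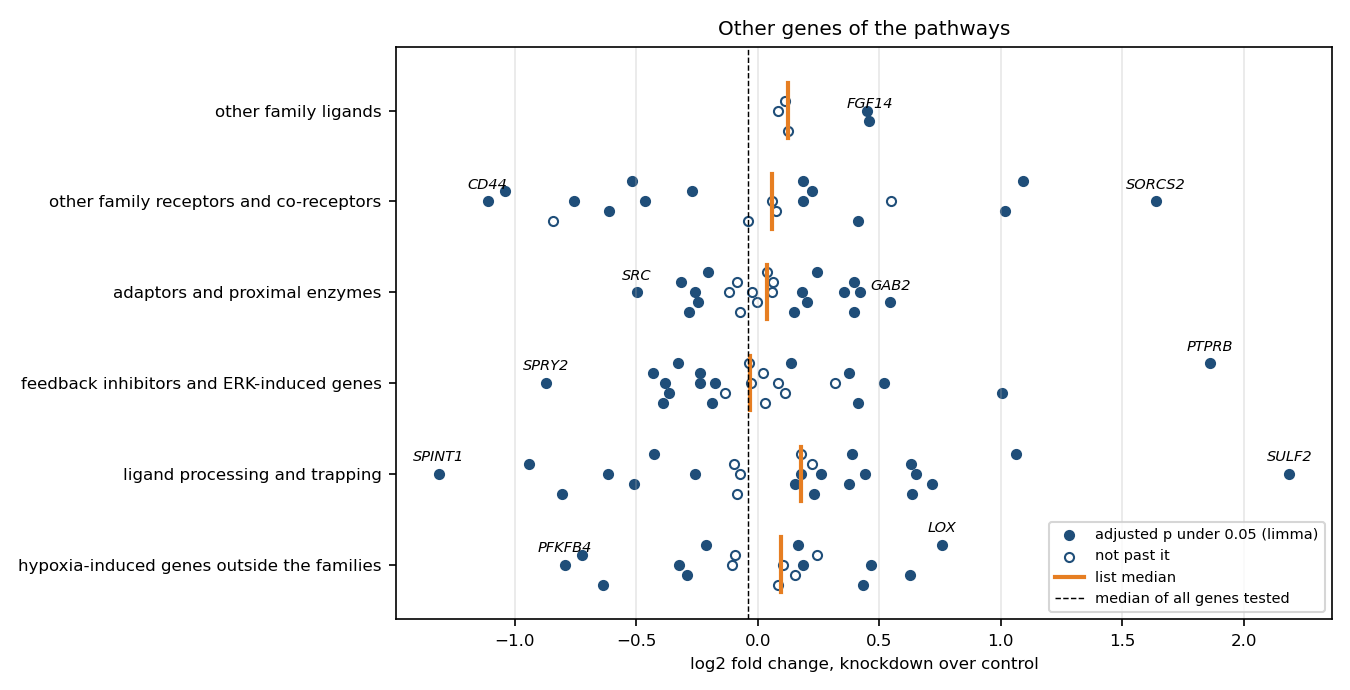
Log2 fold change, knockdown over control, of the 114 tested genes of the 6 lists, each point a gene (filled where it passed the test), with the list medians as bars and the most changed gene on each side labelled. Every list but the other ligands, where 2 rose and none fell, has points that rose and points that fell.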

How the data were processed

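PolyA RNA of 6 libraries, 3 control and 3 knockdown, was sequenced as single reads, per the labels' protocols. The submitters' processing notes name Bowtie2, featureCounts and hg19. The annotation release, strand setting and normalization tool are not given in the sources used here. The authors deposited 1 table of log2 values for 57819 genes. Undoing an offset of 0.5 reads and an effective library size gave whole reads for 100% of values (within 0.01). These reads were divided by that effective size for RPM. Levels per kilobase used exon lengths of GENCODE 29, with all annotated exons of a gene merged. These lengths need not be those of the transcripts present or of the annotation used for counting.

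limma 3.58.1 (R 4.3.3; lmFit, eBayes with trend, two-sided) was run on the deposited log2 values of the 19048 genes with a mean of at least 10 normalized reads, with Benjamini-Hochberg adjustment over all of them and a threshold of 0.05. The offset of 0.5 reads alters fold changes of genes with few reads and can understate them. It is also a larger RPM value in the shallower knockdown libraries, so a gene with 0 reads throughout comes out higher there. The labels do not say that replicates were separate cultures, so p-values measure the spread between these libraries, which may be technical. Members, lists and tests were chosen with earlier results of these data known. By rule, values in every library were given for members past the threshold whose log2 fold change was 0.5 or more in size and for the highest member per kilobase in each system, and up to 3 genes per direction were named per list. Which list genes got fuller values, the level shares and the PDGFRA to PDGFRB ratio were picked after values were seen. Alternatives covered offsets, filters, scalings, voom, variance models, GC and length, thresholds, a replicate block and leaving out each library.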

Additional observations from a re-analysis of the deposited data

How the results depend on the processing

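Of the 19 changed members, 18 kept their sign and their call in each of the 19 other fits that tested them, and KITLG kept its sign and lost its call in 5. Changed members numbered between 16 (mean of at least 50 reads) and 25 (GC and length trend removed). Leaving out a library gave 18 to 21. With the GC and length trend removed, FGF2, FGFR1, FGFRL1, ANGPT1, GAS6 and BDNF also passed, and with the block too FGFR1 and BDNF did not. Genes changed numbered 5195 at an adjusted p under 0.01 and 5803 to 7330 with a library left out. With a fold change of 1 or more in size on the log2 scale required, 561 genes, 4 members, 3 ligands, 1 receptor and 10 other pathway genes were left. Without the filter 54.2% of changed genes were higher, against 42.6%.

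The sign turned in values near 0 and in the receptors' median, from -0.18 to 0.033 without the filter or with a mean of at least 50 reads. Both of these settings change which receptors enter that median. VEGFA was at 0.019 with library totals, 0.027 with median-of-ratios size factors and -0.034 to 0.035 with a library left out. With median-of-ratios size factors FGF2 was at 0.00024 and FGFR1 at 0.0035, and leaving out a library put FGFR1 between -0.050 and 0.016. The ratio of HGF to MET was at -0.027 with the GC and length trend removed and -0.074 to 0.15 with a library left out. The ratio of PDGFC to PDGFRA was at -0.027 with quantile normalization and -0.066 to 0.048 with a library left out. FGF2 to FGFR1 was at 0.020 and -0.076 to 0.043, and PDGFA to PDGFRA ran from -0.015 to 0.24. The ligands' median ran from -0.15 (GC and length trend removed) to 0.00024 (median-of-ratios size factors). The causes were not tested.

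Deviations of libraries with equal replicate numbers correlated at -0.15, -0.18 and 0.065. With 3 libraries per group, centred on their mean, this cannot show whether equal numbers were paired. With the replicate block 6454 genes and 18 members changed, and it ended no member's call but that of KITLG. Genes on a few reads, such as PDGFB and FGF18, are limited by depth.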
